A study of Homo sapiens with 3 samples.

Results

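This section describes 10 splicing regulators in Cal62 cells, a human thyroid cancer cell line, after silencing of the RNA editing enzyme ADAR1. The genes are *ESRP1*, *ESRP2*, *RBFOX2*, *QKI*, *MBNL1*, *MBNL2*, *MBNL3*, *CELF1*, *PTBP1* and *PTBP2*, chosen by symbol among the 58333 Ensembl genes of the deposited table. Each symbol matched 1 identifier. The cells were grown in DMEM with fetal bovine serum and transfected with a negative control siRNA (siControl) or with 1 of 2 siRNAs against *ADAR1* (siADAR1 #1 and siADAR1 #2), all delivered with Lipofectamine RNAiMAX. Poly(A)+ RNA was sequenced from 2 biological replicates of each transfection, which gives 6 libraries in 3 groups. Cal62 is 1 cell line, each group is 1 siRNA, and no untransfected cells were analysed here. The time from transfection to RNA isolation is not given in the sources used here.

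Alternative splicing decides which exons of a gene enter its mature mRNA, and much of its tissue specificity comes from RNA-binding proteins that bind near an exon and promote or repress its use. ESRP1 and ESRP2 favor the exons typical of epithelial cells, whereas RBFOX2 and QKI, together with the MBNL and PTB proteins, regulate many of the exons that switch when epithelial cells take on mesenchymal features. MBNL proteins and CELF1 act on a shared set of exons, often in opposite directions, and their balance shifts during development of muscle and heart. PTBP1 represses neuronal exons in most cells, including an exon of its paralog *PTBP2*, whose protein is typical of neurons. The table holds 1 value per gene, so exon use and isoforms were not measured here, and every result below is a level of total mRNA.

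2 pairs of exons are shown because they are the best-known points at which these regulators act on each other's transcripts. Skipping of the 34-base exon of *PTBP1* or *PTBP2* shifts the reading frame, and PTB proteins promote this skipping. The 54-base exon of *MBNL1* and *MBNL2* keeps the frame, favors a nuclear location of the protein and is repressed by MBNL proteins. In each line the capitals mark the exon, with the 60 intron bases before it and the 10 bases after it in lower case. All are on the forward strand of GRCh38, at chr19:807809-807912 for *PTBP1*, chr1:96806359-96806462 for *PTBP2*, chr3:152446644-152446767 for *MBNL1* and chr13:97356736-97356859 for *MBNL2*, with exon limits from GENCODE release 44.
PTBP1: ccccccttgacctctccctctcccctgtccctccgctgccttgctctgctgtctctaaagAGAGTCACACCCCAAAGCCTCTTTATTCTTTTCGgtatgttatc
PTBP2: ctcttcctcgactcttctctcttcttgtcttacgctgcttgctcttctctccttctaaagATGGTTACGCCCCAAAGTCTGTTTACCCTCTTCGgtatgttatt
MBNL1: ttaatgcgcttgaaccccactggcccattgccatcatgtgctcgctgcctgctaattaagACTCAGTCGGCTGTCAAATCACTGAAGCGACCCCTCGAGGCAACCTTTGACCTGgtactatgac
MBNL2: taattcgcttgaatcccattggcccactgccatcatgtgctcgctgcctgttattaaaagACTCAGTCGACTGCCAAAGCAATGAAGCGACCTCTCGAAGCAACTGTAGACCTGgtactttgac

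The exons of *PTBP1* and *PTBP2* had the same base at 25 of 34 positions (73.5%) and the intron bases, set side by side without gaps, at 26 of 60 (43.3%), the closest fit among shifts of up to 5 bases. The exons of *MBNL1* and *MBNL2* had the same base at 45 of 54 positions (83.3%). Their intron bases were about as alike once shifted by 1 base, with 51 of 59 the same (86.4%), against 17 of 60 (28.3%) without the shift. In the annotation, all 3 transcripts of *PTBP2* that skip its exon are classed as targets of nonsense-mediated decay, against 2 of 5 for *PTBP1*. None of the transcripts that skip the 54-base exon is classed so, of 11 for *MBNL1* and 5 for *MBNL2*.

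Letters that PTB proteins are known to prefer, TCTT or CTCT, were counted on the sense strand only, with overlapping matches counted separately. The 60 bases before the exon held 12 matches in *PTBP2* and 4 in *PTBP1*. The same length before 165385 internal exons of canonical coding transcripts held 1 match at the median, 68.5% held at least 1, 8.14% held as many as *PTBP1* and 0.023% held as many as *PTBP2*. Motifs preferred by MBNL proteins, TGCT or its variant TGCC and CGCT or its variant CGCC, counted in the same way, had 6 matches before the *MBNL1* exon and 5 before the *MBNL2* exon. Of all windows, 53.1% held at least 1 of these and 0.138% and 0.553% held as many as *MBNL1* and *MBNL2*. These matches describe the letters of the windows and were not tested as binding sites.

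The libraries held 30114840 to 50029763 reads on genes (median 43005907). Normalized counts are reads divided by the size factor of the library. A library without a read of a gene allows up to 3 reads, or 2.81 to 4.39 normalized counts depending on the library. This limit covers counting error only. The 20858 genes with a mean of at least 10 normalized counts (nominally, and 7.617 at the deposited scale) were tested with limma on the deposited log2 values. Benjamini-Hochberg adjustment ran over all of them. A gene was called when its adjusted p-value was under 0.05 and its log2 fold change (log2FC) was beyond 0.5 in either direction. All 10 regulators passed the filter. The comparisons of siADAR1 #1 and of siADAR1 #2 with siControl share the same 2 siControl libraries, so their values are given side by side and are not independent of each other. Where groups of 2 libraries are said not to overlap, this describes the libraries and is no test. The share of all genes tested without overlap was not counted.

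The targeted gene was low in every siADAR1 library. *ADAR* had 10906 and 11701 normalized counts in siControl, 1328 and 2246 with siADAR1 #1, and 1663 and 2928 with siADAR1 #2. The siADAR1 libraries kept 15.8% and 20.3% of the siControl mean, with a log2FC of -2.71 (SE 0.30, adjusted p = 0.00295) for siADAR1 #1 and of -2.35 (SE 0.30, adjusted p = 0.00128) for siADAR1 #2 (limma).

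Of the 10 regulators, siADAR1 #1 raised *MBNL2* and *PTBP2* and lowered *MBNL1*, *MBNL3* and *PTBP1*, whereas siADAR1 #2 raised none and lowered *MBNL1*, *MBNL3* and *CELF1*. *RBFOX2*, *QKI*, *ESRP1* and *ESRP2* were called in neither comparison. With siADAR1 #1, 2 of 10 were called higher and 3 lower, where 6.18% of all genes tested were called higher and 10.6% lower. With siADAR1 #2, 0 of 10 were higher and 3 lower, where these shares were 11.1% and 15.5%. The median log2FC of the 10 was -0.16 with siADAR1 #1 and -0.39 with siADAR1 #2, beside -0.02 and -0.01 over all genes tested. In bulk RNA, fewer cells of a type and less RNA per cell cannot be told apart.

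The calls with siADAR1 #1 depended on single libraries. Of its 5 calls, 0 were left without siControl replicate 1, 1 (*PTBP1*) without siControl replicate 2, 1 (*PTBP2*) without siADAR1 #1 replicate 1 and 4 without siADAR1 #1 replicate 2. For siADAR1 #2, 2 of 3 calls were left without siADAR1 #2 replicate 1. Without siControl replicate 1 the count stayed at 3, with *QKI* called in place of *CELF1*. The calls of *MBNL1* and *MBNL3* with siADAR1 #2 were made in 19 of 19 settings of the analysis that kept this comparison.

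**Figure D1:**
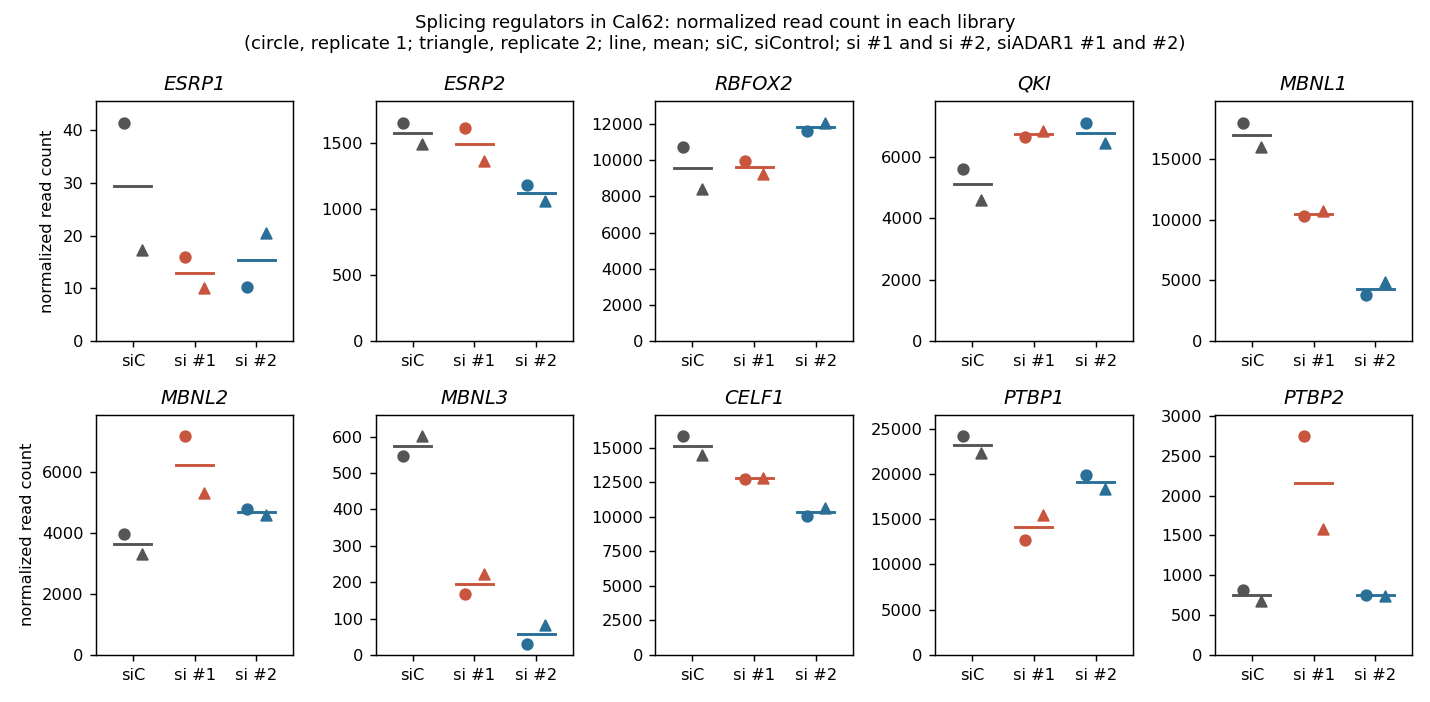
Normalized read count of each regulator (y axis, linear, from 0) in the 6 libraries, by transfection (x axis; siC is siControl, si #1 and si #2 are siADAR1 #1 and #2). Circles are replicate 1, triangles replicate 2 and lines group means. *MBNL1* steps down from 15962 or more in siControl to 4859 or less in siADAR1 #2, and *PTBP2* stands high only in the siADAR1 #1 libraries, at 1575 and 2742.

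Levels of different genes were compared only per length, as TPM (transcript abundance scaled to the same total in each library, from the recovered reads and the merged exon length of each gene in GENCODE release 44). In siControl the order of mean TPM was *PTBP1* at 221, *MBNL1* at 122, *CELF1* at 103, *RBFOX2* at 54.9, *MBNL2* at 50.1, *ESRP2* at 21.7, *QKI* at 20.9, *MBNL3* at 3.20, *PTBP2* at 2.66 and *ESRP1* at 0.413. PTBP1, the general repressor of exons, was thus the most abundant of these mRNAs and ESRP1, the epithelial regulator, the least. The ranges of 2 neighbouring pairs overlapped, *ESRP2* (20.3 to 23.1) with *QKI* (20.6 to 21.2) and *MBNL3* (2.68 to 3.71) with *PTBP2* (up to 2.72). All other neighbours were apart in these 2 libraries. The merged exon length covers all annotated exons of a gene and can exceed that of the transcripts expressed. The order of genes, and the shares and ratios of paralogs below, therefore depend on it. It was 9989 bases for *MBNL1*, 5201 for *MBNL2*, 7521 for *PTBP1* and 20122 for *PTBP2*.

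PTBP1 is the PTB protein of most non-neuronal cells. The gene (ENSG00000011304) lies at chr19:797075-812327 on the forward strand. *PTBP1* had 24131 and 22287 normalized counts in siControl, 12667 and 15487 with siADAR1 #1, and 19831 and 18296 with siADAR1 #2. Both siADAR1 groups lay below siControl without overlap, and siADAR1 #1 lay lowest. *PTBP1* fell with siADAR1 #1 to 60.7% of the siControl mean (log2FC -0.73, SE 0.13, 95% interval -1.02 to -0.43, limma adjusted p = 0.0094). It was not called with siADAR1 #2, at 82.1% of siControl (log2FC -0.28, interval -0.58 to 0.01, limma adjusted p = 0.135). The fall with siADAR1 #1 was called in 16 of 19 settings, with adjusted p from 0.00542 to 0.0732, and was lost without siControl replicate 1 (0.0732) or siADAR1 #1 replicate 1 (0.0527). Between the siRNAs the difference was 0.44 (limma adjusted p = 0.0276), short of the fold threshold, and 0.59 without siADAR1 #1 replicate 2 (0.0172) and 0.51 in quantile-normalized libraries (0.0071), where it was called.

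PTBP2 (ENSG00000117569, chr1:96721665-96823738, forward strand) replaces PTBP1 as neurons mature. *PTBP2* had 819 and 682 normalized counts in siControl, 2742 and 1575 with siADAR1 #1, and 757 and 740 with siADAR1 #2. Both siADAR1 #1 libraries were above all others, while the siADAR1 #2 libraries lay between the siControl libraries. *PTBP2* rose with siADAR1 #1 to 288% of the siControl mean (log2FC 1.47, SE 0.25, interval 0.90 to 2.04, limma adjusted p = 0.00841). With siADAR1 #2 the log2FC was 0.00 (interval -0.57 to 0.57, limma adjusted p = 0.996). The rise was called in 16 of 19 settings (adjusted p 0.00134 to 0.0699) and was lost without siControl replicate 1 (0.0616) or siControl replicate 2 (0.0699). The difference between the siRNAs, -1.47 (SE 0.25, limma adjusted p = 0.00293), was called in 19 of 19 settings. The paralog *PTBP3*, widely expressed and not among the 10, had 14040 and 9676 normalized counts in siControl, 19756 and 16002 with siADAR1 #1, and 6600 and 6710 with siADAR1 #2. *PTBP3* was called lower with siADAR1 #2 (log2FC -0.81, limma adjusted p = 0.0132) and was not called with siADAR1 #1 (0.61, 0.055). Its difference between the siRNAs, -1.42 (limma adjusted p = 0.000977), was called.

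The balance of the 3 PTB paralogs differed between the groups. Per length, *PTBP1* made up 64.8% and 71.0% of the family's TPM in siControl, 39.9% and 50.5% with siADAR1 #1, and 75.9% and 74.1% with siADAR1 #2. *PTBP3* held 34.4% and 28.2% in siControl, 56.9% and 47.6% with siADAR1 #1, and 23.1% and 24.8% with siADAR1 #2. The higher *PTBP1* share with siADAR1 #2 thus stood beside a lower *PTBP3* share, while the normalized counts of *PTBP1* lay below siControl. *PTBP2* stayed a small part, at 0.822% and 0.813% in siControl, 3.23% and 1.92% with siADAR1 #1, and 1.08% and 1.12% with siADAR1 #2. The TPM ratio of *PTBP1* to *PTBP2* was 78.8 and 87.4 in siControl, 12.4 and 26.3 with siADAR1 #1, and 70.0 and 66.2 with siADAR1 #2. The sum of the family ranged from 272 to 335 TPM over the 6 libraries. The exons shown above for *PTBP1* and *PTBP2* are where PTB proteins are known to act on these transcripts, and their use was not measured. Of 12 neuron and muscle markers 4 passed the filter. With siADAR1 #1, 2 of these were higher (*TUBB3* and *SNAP25*) and 0 lower, beside 6.18% and 10.6% of all genes tested. With siADAR1 #2, 1 was higher (*SYP*) and 1 lower (*SNAP25*), beside 11.1% and 15.5%. *SNAP25* was thus called in opposite directions, with a log2FC of 1.25 (limma adjusted p = 0.0338) and -2.10 (0.00258). These genes were named after their values were seen. The defining markers *STMN2*, *NEFL* and *MYOD1* had 0 reads in every library, and the summed TPM of the list was 15.2 to 21.5 in siControl, 27.6 to 28.8 in siADAR1 #1 and 21.8 to 22.1 in siADAR1 #2. The part of these markers in the *PTBP2* values was not tested.

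MBNL1, the main muscleblind protein of many tissues, was called lower with each siRNA. *MBNL1* (ENSG00000152601, chr3:152243828-152465780, forward strand) had 17983 and 15962 normalized counts in siControl, 10275 and 10673 with siADAR1 #1, and 3767 and 4859 with siADAR1 #2. The 3 groups did not overlap. *MBNL1* fell to 61.7% of the siControl mean with siADAR1 #1 (log2FC -0.69, SE 0.14, interval -1.02 to -0.37, limma adjusted p = 0.0156). With siADAR1 #2 it fell to 25.4% (log2FC -1.98, SE 0.14, interval -2.31 to -1.66, limma adjusted p = 0.000259). The fall with siADAR1 #1 was called in 15 of 19 settings (adjusted p 0.00884 to 0.108) and was lost without siControl replicate 1 (0.108), siControl replicate 2 (0.0594) or siADAR1 #1 replicate 1 (0.077). The further fall between the siRNAs, -1.29 (SE 0.14, limma adjusted p = 0.000535), was called in 19 of 19 settings. The antisense gene *MBNL1-AS1* shares 1175 bases of *MBNL1* exon (11.8%) on the opposite strand and had 29 to 574 reads in a library.

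MBNL3 is a low-abundance paralog described mostly in placenta and in immature muscle cells. *MBNL3* (ENSG00000076770, chrX:132369320-132489968, reverse strand) had 548 and 601 normalized counts in siControl, 168 and 224 with siADAR1 #1, and 29.5 and 83.5 with siADAR1 #2, the last from 26 and 57 reads. The 3 groups again did not overlap, in the same order as for *MBNL1*. *MBNL3* fell to 34.1% of the siControl mean with siADAR1 #1 (log2FC -1.55, SE 0.43, interval -2.54 to -0.57, limma adjusted p = 0.0411). With siADAR1 #2 it fell to 9.84% (log2FC -3.46, SE 0.43, interval -4.44 to -2.47, limma adjusted p = 0.00111). The size of this second fall rested on the library used, -2.74 when siADAR1 #2 replicate 1 was left out and -4.17 when siADAR1 #2 replicate 2 was. The call with siADAR1 #1 was the least stable among the 10 regulators, made in 11 of 19 settings (adjusted p 0.00649 to 0.182) and lost without any 1 of siControl replicate 1 (0.167), siControl replicate 2 (0.182), siADAR1 #1 replicate 1 (0.179) or siADAR1 #1 replicate 2 (0.0614). Between the siRNAs *MBNL3* differed by -1.91 (SE 0.43, limma adjusted p = 0.01). This was called in 19 of 19 settings and was -1.19 when siADAR1 #2 replicate 1 was left out and -2.62 when siADAR1 #2 replicate 2 was.

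MBNL2, a paralog that is prominent in brain, moved the other way with siADAR1 #1. *MBNL2* (ENSG00000139793, chr13:97221434-97394120, forward strand) had 3981 and 3330 normalized counts in siControl, 7178 and 5311 with siADAR1 #1, and 4805 and 4589 with siADAR1 #2. All 4 siADAR1 libraries were above both siControl libraries. *MBNL2* rose with siADAR1 #1 to 171% of the siControl mean (log2FC 0.76, SE 0.16, interval 0.38 to 1.14, limma adjusted p = 0.0182). With siADAR1 #2 it stood at 128% and was not called (log2FC 0.37, interval -0.01 to 0.75, limma adjusted p = 0.135), except with quantile-normalized libraries (0.52, adjusted p = 0.0366). The rise was called in 15 of 19 settings (adjusted p 0.00499 to 0.113) and was lost without siControl replicate 1 (0.0702), siControl replicate 2 (0.113) or siADAR1 #1 replicate 1 (0.0859). The siRNAs differed by -0.39 (limma adjusted p = 0.0976), and by -0.61 without siADAR1 #1 replicate 2 (0.0226), which was called.

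The makeup of the MBNL family differed between the groups. Per length, *MBNL1* held 69.0% and 69.9% of the family's TPM in siControl, 42.5% and 50.7% with siADAR1 #1, and 28.9% and 35.4% with siADAR1 #2. *MBNL2* held 29.4% and 28.0% in siControl, 57.0% and 48.5% with siADAR1 #1, and 70.9% and 64.2% with siADAR1 #2. *MBNL3* never exceeded 2.02%. The TPM ratio of *MBNL1* to *MBNL2* went from 2.35 and 2.50 in siControl to 0.745 and 1.05 in siADAR1 #1 and 0.408 and 0.551 in siADAR1 #2, so the ranges did not overlap. The family's summed TPM was 166 and 183 in siControl, 186 and 156 with siADAR1 #1, and 102 and 115 with siADAR1 #2. Both siADAR1 #2 libraries were below all others in this sum, and the siADAR1 #1 libraries lay on either side of siControl. These shares are ratios within a library, so they show unequal change of the paralogs and are described here with no test of their own. Which paralog is the larger in a library depends on the merged exon lengths.

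**Figure D2:**
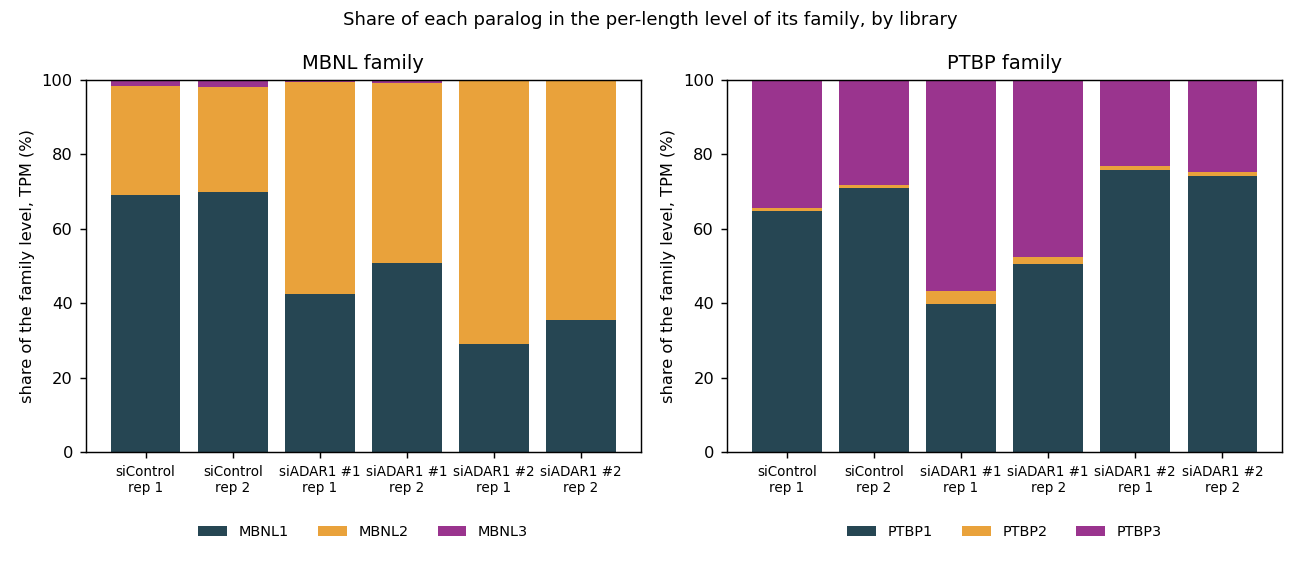
Share of each paralog in the summed TPM of its family (y axis, percent) in each of the 6 libraries (x axis), for the MBNL family on the left and the PTB family on the right. *MBNL1* takes 69.0% and 69.9% in siControl and 28.9% and 35.4% in siADAR1 #2, and *PTBP1* is lowest in siADAR1 #1, at 39.9% and 50.5%.

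CELF1 binds GU-rich elements, promotes decay of many mRNAs and opposes MBNL proteins at several exons. *CELF1* (ENSG00000149187, chr11:47465933-47565569, reverse strand) had 15800 and 14482 normalized counts in siControl, 12757 and 12776 with siADAR1 #1, and 10015 and 10598 with siADAR1 #2. The groups did not overlap and siADAR1 #2 was lowest. *CELF1* fell with siADAR1 #2 to 68.1% of the siControl mean (log2FC -0.55, SE 0.10, interval -0.79 to -0.31, limma adjusted p = 0.00583). With siADAR1 #1 it was at 84.3% and was not called (log2FC -0.24, interval -0.48 to -0.01, limma adjusted p = 0.145). The call with siADAR1 #2 was made in 16 of 19 settings (adjusted p 0.00394 to 0.0551). It was lost without siADAR1 #2 replicate 1 (0.0551), and without siControl replicate 1 and with quantile-normalized libraries because the log2FC was then -0.49 and -0.40. Between the siRNAs the difference of -0.31 (limma adjusted p = 0.0488) was short of the fold threshold. Exons of *CELF1* share 234 bases (2.22%) with *NDUFS3* on the opposite strand. The TPM ratio of *MBNL1* to *CELF1*, 1.20 and 1.16 in siControl, was 0.851 and 0.883 with siADAR1 #1 and 0.397 and 0.484 with siADAR1 #2. The groups did not overlap.

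QKI, a STAR-family protein that acts on exons and on the formation of circular RNA in mesenchymal cells, was called with neither siRNA. *QKI* (ENSG00000112531, chr6:163414000-163578592, forward strand) had 5604 and 4588 normalized counts in siControl, 6631 and 6818 with siADAR1 #1, and 7105 and 6454 with siADAR1 #2. All 4 siADAR1 libraries were above both siControl libraries, at 132% and 133% of the siControl mean. The log2FC was 0.41 (SE 0.13, interval 0.11 to 0.71, limma adjusted p = 0.0649) for siADAR1 #1 and 0.42 (SE 0.13, interval 0.12 to 0.72, limma adjusted p = 0.0435) for siADAR1 #2, below the fold threshold. *QKI* was called with siADAR1 #1 in median-centred libraries (0.55, adjusted p = 0.0304). With siADAR1 #2 it was called in quantile-normalized libraries (0.57, 0.00478) and without siControl replicate 1 (0.56, 0.039). The difference between the siRNAs was 0.01, with an interval of -0.29 to 0.31.

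RBFOX2, which binds the sequence UGCAUG beside exons of epithelial, mesenchymal and muscle cells alike, was not called in any comparison. *RBFOX2* (ENSG00000100320, chr22:35738736-36028824, reverse strand) had 10713 and 8390 normalized counts in siControl, 9960 and 9235 with siADAR1 #1, and 11605 and 12076 with siADAR1 #2. The siADAR1 #1 libraries lay within the siControl range, and the siADAR1 #2 libraries lay above it. The log2FC was 0.02 (interval -0.30 to 0.33, limma adjusted p = 0.95) for siADAR1 #1. For siADAR1 #2 it was 0.32 (interval 0.01 to 0.63, limma adjusted p = 0.115). No setting called it.

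ESRP2 and ESRP1 are the epithelial regulators of the list. *ESRP2* (ENSG00000103067, chr16:68229033-68238102, reverse strand) was the more abundant per length in every library, with 1655 and 1496 normalized counts in siControl, 1618 and 1365 with siADAR1 #1, and 1180 and 1063 with siADAR1 #2. Its siADAR1 #2 libraries were below all others, at 71.2% of the siControl mean, whereas the siADAR1 #1 libraries overlapped siControl. The log2FC with siADAR1 #2 was -0.49 (SE 0.15, interval -0.83 to -0.15, limma adjusted p = 0.0384), just inside the fold threshold, so *ESRP2* was not called. With siADAR1 #1 it was -0.08 (interval -0.42 to 0.25, limma adjusted p = 0.745), and 0.063 in median-centred libraries. The siRNAs differed by -0.41 (limma adjusted p = 0.0616). This difference was called in median-centred libraries (-0.54, 0.0396) and without siADAR1 #1 replicate 2 (-0.53, 0.0458). On the opposite strand *NFATC3* shares 227 bases (4.37%) of *ESRP2* exon.

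ESRP1 (ENSG00000104413), usually the more abundant ESRP of epithelia, was close to the filter. It had 38 and 17 reads in siControl, 17 and 8 with siADAR1 #1, and 9 and 14 with siADAR1 #2, or 41.4 and 17.3, 15.9 and 10.0, and 10.2 and 20.5 normalized counts. The siControl libraries themselves differed by more than the groups did, and the siADAR1 #2 range overlapped siControl. The intervals of the log2FC were wide, -2.16 to 0.24 around -0.96 for siADAR1 #1 and -1.99 to 0.41 around -0.79 for siADAR1 #2 (limma adjusted p = 0.244 and 0.297). *ESRP1* was not called in any setting. *ESRP1* made up at most 2.59% of the TPM of both ESRP genes in any library.

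**Figure D3:**
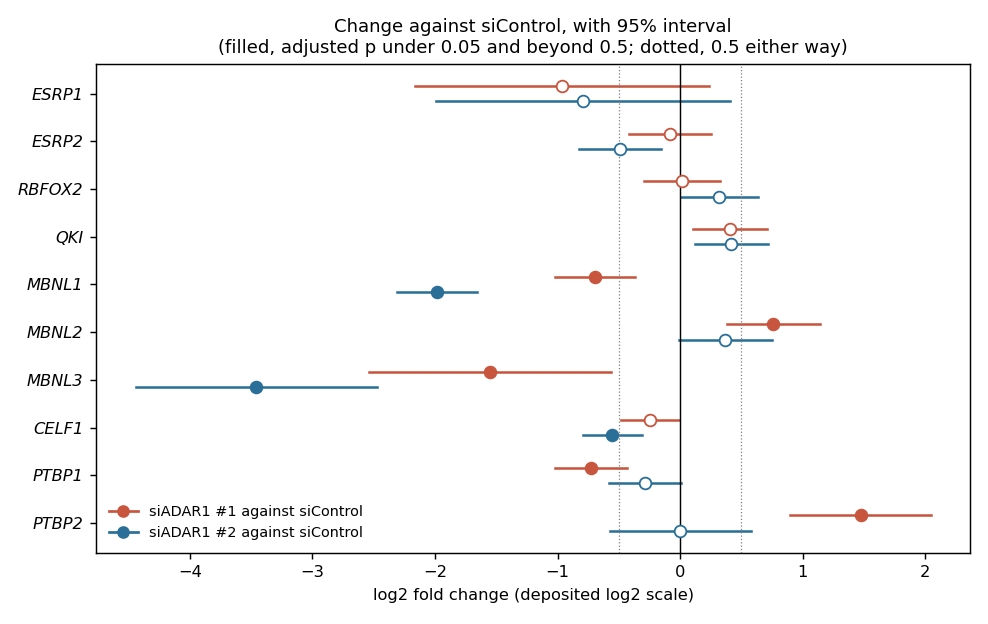
Log2 fold change of each regulator (x axis, log2 scale) against siControl for siADAR1 #1 (orange) and siADAR1 #2 (blue), with limma's 95% interval over 2 libraries per group. Filled points were called and dotted lines mark 0.5 either way. *MBNL3* lies farthest left, at -1.55 and -3.46, and *PTBP2* is apart for the siRNAs, at 1.47 and 0.00.

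The responses to the siRNAs were compared directly. Of the 10 regulators, 0 were higher with siADAR1 #2 than with siADAR1 #1 and 3 were lower (*MBNL1*, *MBNL3* and *PTBP2*), where 16.7% of all genes tested were called higher and 16.1% lower. The median difference was -0.35 over the 10 and 0.00 over all genes. *ADAR* itself differed by 0.35 between the siRNAs (limma adjusted p = 0.404). Without siADAR1 #1 replicate 2 the count rose to 6, with *PTBP1*, *MBNL2* and *ESRP2* added. When the 4 siADAR1 libraries were treated as 1 group, limma called 0 of the 10 and 0 of all genes, with 2916 genes at an unadjusted p under 0.05 and a smallest adjusted p of 0.0988.

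A list of 50 other tissue-type splicing regulators, the remaining RBFOX, CELF, PTBP, NOVA, RBM and ELAVL genes among them, matched 51 identifiers, of which 44 passed the filter. With siADAR1 #1, 3 were higher and 6 lower, beside 6.18% and 10.6% of all genes tested, with a median log2FC of -0.06. With siADAR1 #2, 2 were higher and 13 lower, beside 11.1% and 15.5% of all genes, with a median of -0.33. Between the siRNAs 5 were higher and 9 lower in siADAR1 #2, beside 16.7% and 16.1%, with a median of -0.26. *MATR3* has 2 identifiers at overlapping positions. ENSG00000280987 was called lower with siADAR1 #2 against siControl (log2FC -1.54) and against siADAR1 #1 (-2.59). ENSG00000015479 was not called, at -0.37 and -0.43, short of the fold threshold. The calls of *MATR3* are therefore uncertain. *RBFOX3*, a marker of neurons, had 11.7 to 36.3 normalized counts.

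Of this list, *RAVER1*, a partner of PTBP1, *SFPQ*, which binds pyrimidine-rich RNA, and *ELAVL1*, the AU-rich element binding protein HuR, were called lower in each comparison with the shared siControl libraries. *RAVER1* had 5075 and 4759 normalized counts in siControl, 2850 and 3420 with siADAR1 #1, and 2957 and 3161 with siADAR1 #2. Its log2FC was -0.65 (adjusted p = 0.0137) and -0.68 (0.00605). *SFPQ* had 23548 and 22292, 9127 and 13238, and 14569 and 15021 normalized counts, with a log2FC of -1.06 (0.00686) and -0.63 (0.0246). These 3 genes lay lower in every siADAR1 library than in siControl. *ELAVL1* had 9424 and 8332, 4503 and 6415, and 4916 and 5234 normalized counts, with a log2FC of -0.72 (0.0246) and -0.80 (0.01), all by limma. Each of these calls needed particular libraries. Without siControl replicate 1 all 6 were lost, at 0.0963 and 0.0521 for *RAVER1*, 0.0658 and 0.128 for *SFPQ*, and 0.152 and 0.0823 for *ELAVL1*. Leaving out siControl replicate 2 or the first replicate of the siRNA ended the calls of *RAVER1* (0.0636 and 0.0707) and *ELAVL1* (0.086 and 0.101) with siADAR1 #1. With siADAR1 #2, *ELAVL1* was lost without siADAR1 #2 replicate 1 (0.0606), and *SFPQ* was lost without siControl replicate 2 (0.0875), siADAR1 #2 replicate 1 (0.111) or siADAR1 #2 replicate 2 (0.0749). In eBayes without trend all these calls were lost (0.0536 to 0.102) except that of *RAVER1* with siADAR1 #2, and *SFPQ* with siADAR1 #2 was lost in quantile-normalized libraries (0.0687).

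*RBM4*, an RNA-binding protein that opposes PTBP1 at muscle exons, was called in opposite directions. It had 7309 and 5613 normalized counts in siControl, 9532 and 8740 with siADAR1 #1, and 4613 and 4405 with siADAR1 #2, with no overlap. The log2FC was 0.51 (limma adjusted p = 0.0437) and -0.51 (0.0313), both near the fold threshold. Leaving out any 1 of the 6 libraries ended the call with siADAR1 #1 (0.0546 to 0.187). The call with siADAR1 #2 was lost without siControl replicate 1 (0.156), siADAR1 #2 replicate 1 (0.102) or siADAR1 #2 replicate 2 (0.122). It was also lost with no filter (adjusted p = 0.06), in eBayes without trend (0.109), in median-centred (-0.49) and quantile-normalized libraries (-0.34), with recomputed size factors (-0.49) and with voom (-0.46). The call with siADAR1 #1 was lost with no filter (0.0839), in eBayes without trend (0.143) and in the fit of only the 4 libraries compared (0.0632). The difference between the siRNAs was -1.02 (limma adjusted p = 0.00135) and held without any 1 library, at 0.00234 to 0.00933.

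A list of 20 genes whose exons are known to respond to these regulators, such as *FGFR2*, *CTNND1* and *ENAH*, was examined at the gene level, and all 20 passed the filter. With siADAR1 #1, 2 were higher and 2 lower, where the shares over all genes tested were 6.18% and 10.6%, and the median log2FC was -0.11. With siADAR1 #2, 0 were higher and 5 lower, where these shares were 11.1% and 15.5%, and the median was -0.14. Between the siRNAs 2 were higher and 3 lower in siADAR1 #2, where they were 16.7% and 16.1%, and the median was -0.18. *SCRIB*, a cell polarity scaffold, was lower in each comparison, with 5314 and 6132 normalized counts in siControl, 3023 and 3701 with siADAR1 #1, and 3927 and 3643 with siADAR1 #2 (log2FC -0.77 and -0.59, limma adjusted p = 0.0104 and 0.0155). It was lost with siADAR1 #1 without siControl replicate 1 (0.0575), siControl replicate 2 (0.0746) or siADAR1 #1 replicate 1 (0.0543), and with siADAR1 #2 without siControl replicate 2 (0.0977), siADAR1 #2 replicate 1 (0.0565) or siADAR1 #2 replicate 2 (0.0775). Both calls were lost in eBayes without trend (0.0632 and 0.0697), and that with siADAR1 #2 also in quantile-normalized libraries (-0.45).

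*CD44*, the hyaluronan receptor whose variable exons ESRP proteins include, was called in opposite directions. It had 17829 and 18609 normalized counts in siControl, 25601 and 26611 with siADAR1 #1, and 11878 and 13703 with siADAR1 #2. The groups did not overlap, with a log2FC of 0.52 (limma adjusted p = 0.0177) and -0.51 (0.0107). The rise was lost without siControl replicate 1 (0.0943), siControl replicate 2 (0.0655), siADAR1 #1 replicate 1 (0.0711) or siADAR1 #1 replicate 2 (0.0586). The fall was lost without siControl replicate 2 (0.0524) or siADAR1 #2 replicate 1 (0.0983). It also missed a threshold in eBayes without trend (adjusted p = 0.0658), and by its size in median-centred (-0.497) and quantile-normalized libraries (-0.37), with recomputed size factors (-0.498) and with voom (-0.47). The rise was lost in eBayes without trend (0.0935). The difference between the siRNAs, -1.03 (limma adjusted p = 0.000491), held without any 1 library, at 0.00192 to 0.00534.

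**Figure D4:**
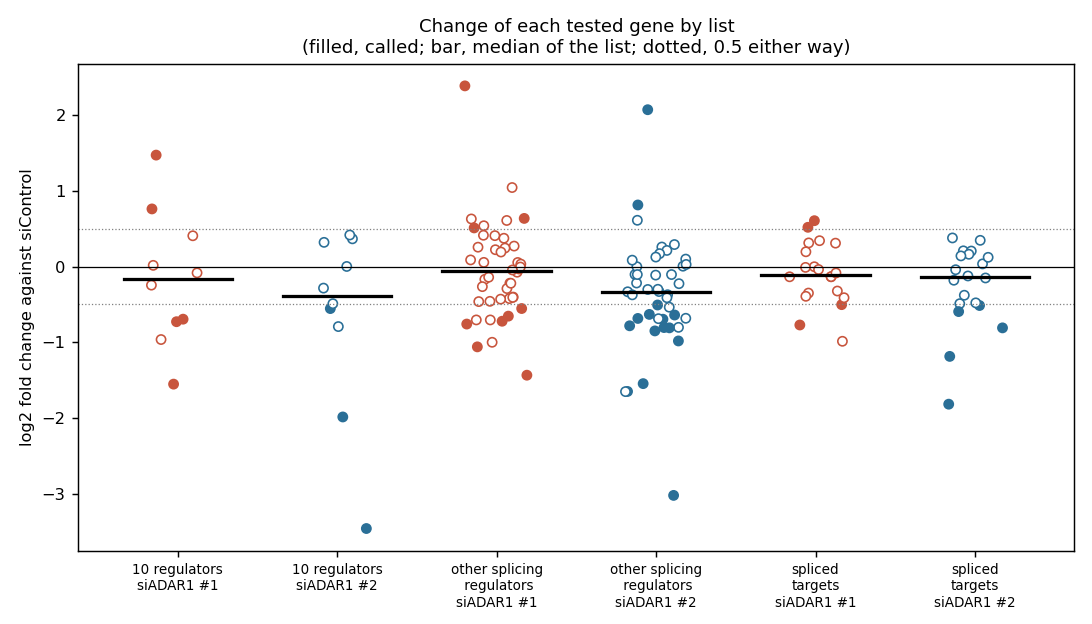
Log2 fold change against siControl (y axis, log2 scale) of every tested gene of 3 lists (x axis), the 10 regulators, 44 identifiers of other splicing regulators and 20 spliced target genes, for siADAR1 #1 (orange) and siADAR1 #2 (blue). Filled points were called, bars are list medians and dotted lines mark 0.5 either way. The medians lie between -0.39 and -0.06, with calls on both sides of 0 for siADAR1 #1 in each list.

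Markers were read beside these values, since the regulators are tied to epithelial and mesenchymal states. Of 15 epithelial markers 11 passed the filter. With siADAR1 #1, 1 was higher and 0 lower, beside 6.18% and 10.6% of all genes tested, with a median log2FC of 0.19. With siADAR1 #2, 1 was higher and 3 lower, beside 11.1% and 15.5%, with a median of -0.11. Their summed TPM was 2716 to 2921 in siControl, 3977 to 5909 in siADAR1 #1 and 2170 to 2219 in siADAR1 #2. *KRT7*, a keratin, had the highest mean TPM of this list in siControl, with 87290 and 57869 normalized counts there. It was called in opposite directions, higher with siADAR1 #1 (log2FC 1.01, limma adjusted p = 0.0466) and lower with siADAR1 #2 (-0.92, 0.0456). With siADAR1 #1 *KRT7* was the only epithelial marker called. With siADAR1 #2 *KRT19* was called higher, and *KRT18* and *OCLN* were called lower as well. *OVOL1* had 6.3 or fewer normalized counts in every library. Of 15 mesenchymal markers 14 passed the filter. With siADAR1 #1, 0 were higher and 5 lower, beside 6.18% and 10.6% of all genes tested, with a median log2FC of -0.45. With siADAR1 #2, 1 was higher and 6 lower, beside 11.1% and 15.5%, with a median of -0.45. Their summed TPM was 2415 to 2743 in siControl, 785 to 1047 in siADAR1 #1 and 2184 to 2562 in siADAR1 #2. *VIM*, the intermediate filament vimentin, had the highest mean TPM of this list in siControl, though not in the siADAR1 groups, with 105253 and 92977 normalized counts in siControl, 5464 and 17949 with siADAR1 #1, and 50998 and 66855 with siADAR1 #2. The mesenchymal markers did not move as 1 group. *VIM* and *SNAI2* were called lower only with siADAR1 #1, and *COL1A1*, *COL1A2* and *TWIST2* with each siRNA. *FN1*, *S100A4* and *ZEB1* were called lower only with siADAR1 #2, where *SPARC* was called higher. The part of these marker changes in the values of the 10 regulators was not tested.

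The thyroid label was checked in the same way. Of 10 thyroid markers 7 passed the filter. *PAX8*, a thyroid transcription factor, had 2542 to 15868 normalized counts, *TG* had 0 to 62.4, and *NKX2-1* had 0 reads in every library, so a defining marker was absent at this depth. The summed TPM of the list was 176 to 242 in siControl, 182 to 230 in siADAR1 #1 and 89.1 to 124 in siADAR1 #2, with 2 markers lower in siADAR1 #2 and 0 called in siADAR1 #1. Of 6 leukocyte markers 2 passed the filter, with 1 higher and 1 lower in siADAR1 #1 and 0 called in siADAR1 #2. *CD3E* had 0 reads in every library, and the leukocyte list summed to 2.90 to 6.41 TPM. Beside these thyroid and leukocyte counts, 6.18% of all genes tested were called higher and 10.6% lower with siADAR1 #1. With siADAR1 #2 these shares were 11.1% and 15.5%.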

How the data were processed

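Poly(A)+ RNA of Cal62 cells was sequenced by the authors with 75-bp paired-end reads, and reads on known genes were counted in the bcbio-nextgen pipeline, which uses featureCounts and Salmon. The deposited values are on a log2 scale, a variance-stabilizing transformation by the authors of counts divided by size factors, on GRCh38 per the labels. The annotation release and the strand setting are not given in the sources used here, so reads of overlapping antisense genes cannot be told apart. The labels name 1 sample per transfection, with 2 columns each, taken as the 2 biological replicates of the study's methods.

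Undoing the transformation (lowest value 0.347736, a count of 0) gave whole reads for 100% of values in every library, within 0.1. Reads in rows without a symbol made up 0.12% of the total. Symbols were found for 57830 identifiers and 503 had none. Tests were two-sided, with limma 3.58.1 (lmFit, then eBayes with a trend) run in R 4.3.3 on 3 groups with 3 residual degrees of freedom. Precision is also limited by 2 libraries per group. The steps were tested on simulated data.

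The 10 genes and all lists were chosen with earlier results of these data known. Named beyond the 10 were *ADAR* and, of the other lists, genes called in both comparisons with siControl, in the same or in opposite directions. *PTBP3* and *RBFOX3* were added after their values were seen, as the remaining PTB paralog and a neuron marker.

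Replicate numbers were checked for pairing over 20858 genes. The difference between replicates correlated with that of siControl at 0.106 for siADAR1 #1 and 0.110 for siADAR1 #2, and at 0.162 from siRNA to siRNA. These values are low but above 0.1, so pairing was taken as possible. The main fit held no block, and a block by replicate number was tried as an alternative. With the block 4086 genes were called with siADAR1 #1 and 6038 with siADAR1 #2, in place of 3502 and 5541. The other alternatives were no filter or a filter at 50, median-centred or quantile-normalized libraries, recomputed size factors, log2 of the normalized count plus 1, voom on recovered reads, eBayes without trend or robust, the 4 libraries compared only, both siRNAs as 1 group, and each library left out. The average of the siRNA changes, with and without the block, and reads thinned to 1 total were added after the values were seen.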

Additional observations from a re-analysis of the deposited data

Results flagged for a closer look

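The effect of siADAR1 #2 differed from that of siADAR1 #1, by the test of the difference between the siRNAs, for 3 of the 10 regulators. Of the 10, 0 were called higher and 3 lower, where 16.7% of all genes tested were called higher and 16.1% lower. Calls in this comparison were thus common among all genes. *MBNL1* was lower with siADAR1 #2, by a log2 difference of -1.29 (SE 0.14, limma adjusted p = 0.000535), and both of its siADAR1 #2 libraries lay below both siADAR1 #1 libraries. *MBNL3* was also lower, by -1.91 (SE 0.43, limma adjusted p = 0.01), from 26 and 57 reads in siADAR1 #2 and 180 and 178 in siADAR1 #1. *PTBP2* was lower by -1.47 (SE 0.25, limma adjusted p = 0.00293), since only siADAR1 #1 stood above siControl. *ADAR* differed by 0.35 between the same libraries (limma adjusted p = 0.404). Groups of 2 libraries are too small for a test of single outlying libraries, so none was made.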

How the results depend on the processing

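Of 597 log2FC values of the 10 regulators under an alternative, 534 kept their direction and their side of the thresholds, 35 were no longer called, 15 became called and 13 changed sign. The sign changes were values near 0 that were not called. *ESRP1* between the siRNAs was -0.12 in thinned reads and -0.26 to 0.60 when 1 library was left out. *ESRP2* with siADAR1 #1 was 0.063 in median-centred and 0.025 in quantile-normalized libraries and -0.20 to 0.040 with 1 library left out. *QKI* between the siRNAs was -0.12 in median-centred libraries and -0.059 to 0.080 with 1 left out. With 1 left out, *RBFOX2* with siADAR1 #1 was -0.16 to 0.19 and *PTBP2* with siADAR1 #2 was -0.13 to 0.13. With both siRNAs as 1 group, *CD44* was at 0.0026 and *RBM4* at 0.0021 against their calls with siADAR1 #2.

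Without a trend in eBayes, siADAR1 #1 called 0 of the 10 regulators, 2 other splicing regulators and 0 spliced targets, in place of 5, 9 and 4, and siADAR1 #2 called 9 and 2 of the latter lists in place of 15 and 5. Quantile-normalized libraries left 3 spliced targets with siADAR1 #2. With both siRNAs as 1 group, 0 genes of any list were called, and the average of the siRNA changes called 5 regulators with and without the replicate block. An average can be called where only 1 siRNA changed a gene. *MBNL2* (0.56), *PTBP1* (-0.51) and *PTBP2* (0.74) were called by the average but not with siADAR1 #2, where *PTBP2* was at 0.00. Leaving out 1 library gave 0 to 5 regulators for siADAR1 #1, 2 to 3 for siADAR1 #2 and 3 to 6 between the siRNAs. It gave 0 to 12, 8 to 16 and 12 to 16 other splicing regulators, and 0 to 5, 2 to 5 and 5 to 6 spliced targets. The cause of these changes was not tested. The replicate block called 5, 3 and 3 of the 10 regulators and changed no call of a regulator or named gene.

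Genes called with siADAR1 #1, 3502 in all, were 1347 without a trend, 392 or 1248 when siControl replicate 1 or 2 was left out, and 1412 when siADAR1 #1 replicate 1 was. With siADAR1 #2, 5541 became 3150 without siControl replicate 1 and 3242 without siADAR1 #2 replicate 1, and the average of the siRNA changes called 3585. Median-centring moved all log2FC values by 0.15 for siADAR1 #1, by 0.02 for siADAR1 #2 and by -0.13 between the siRNAs. Where 1 library of a group was left out, the lone library was assumed to vary like the other groups. The fewest reads lay behind *ESRP1* and the siADAR1 #2 values of *MBNL3*.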

Other observations

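For the 3 regulators with the smallest adjusted p-values against siControl, the tested genes with the most similar log2 values over the 6 libraries were *QSER1* and *TOP2A* for *MBNL1* (Pearson r 0.999 and 0.999), *ZMYM4* and *CHN1* for *MBNL3* (0.998 and 0.998), and *UNC13B* and *RBBP7* for *CELF1* (0.998 and 0.998). These values describe 6 points that fall into 3 groups of 2 and were picked as the highest among 20858 genes.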
